A study of Mus musculus with 4 samples.

Results

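Lungs that carried Asf1a-knockout tumours were compared with lungs that carried wild-type tumours, both from mice given an antibody against PD-1. The comparison rests on single-cell RNA sequencing (10x Genomics 3′ chemistry, version 2) of whole-lung suspensions, with 1 library a side. Its members were the cells with at least 200 detected genes and at most 10% of their unique molecular identifiers (UMIs, counted molecules) from mitochondrial genes. This gave 11962 of the 23730 such cells in the series, 5677 in the knockout library and 6285 in the wild-type library. The tumour cells were a mouse non-small-cell lung cancer line named KP, without P53 (P53-/-), and reached the lung of B6 mice through a vein. The group called KO anti-PD-1 had received KP cells in which Asf1a was knocked out, and the group called WT anti-PD-1 had received KP-WT cells. Both had been treated with anti-PD-1 clone 29F.1A12 at 200 µg per mouse, 3 times a week for 1 week. The other 2 groups, KO IgG and WT IgG, had the same tumours and an isotype IgG in place of the antibody. The knockout was in the injected cells, so immune and stromal cells came from hosts with no labelled mutation. The sources used here do not give the number of mice or knockout clones behind a library. With 1 library a group no test was possible. Each interval below is an exact 95% interval that covers counting error only, and differences between mice, tumour loads or preparations cannot be told apart from genotype. KO IgG against WT IgG shares no library with the anti-PD-1 pair, and its value is given beside most results.

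ASF1A is a chaperone of histones H3 and H4. It hands them to the CAF-1 complex on replicating DNA and to the HIRA complex elsewhere in the genome, and ASF1B is its close relative in dividing cells. PD-1 is an inhibitory receptor on activated T cells, and anti-PD-1 keeps it from its ligands PD-L1 (Cd274) and PD-L2. Activated T and NK cells then secrete interferon gamma, which acts on macrophages, neutrophils and tumour cells to raise chemokines such as Cxcl9 and Cxcl10, guanylate-binding proteins and antigen presentation.

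Asf1a itself had 46 UMIs in WT anti-PD-1 tumour cells, or 28.2 CPM (UMIs scaled to a class total of 1000000), and 13 UMIs in KO anti-PD-1 tumour cells, 7.25 CPM. The ratio of knockout to wild type was 0.257 (interval 0.127 to 0.484). The IgG tumour cells gave 62 UMIs in wild type and 27 in knockout, a ratio of 0.276. In T cells, which come from the host, the ratio was 1.09 (0.775 to 1.51). A 3′ tag need not lie in the edited stretch, so the remaining UMIs do not measure intact protein. Asf1b, the relative, was higher in knockout tumour cells, at 25.1 against 7.36 CPM (45 and 12 UMIs, log2 ratio 1.77, 0.83 to 2.82; 1.30 under IgG).

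The KO anti-PD-1 library stood apart from the other 3 in ways that crossed cell types. Depth was not one of these. KO anti-PD-1 held 6094 barcodes and 16078095 UMIs against 6683 and 22369904 in WT anti-PD-1, with medians of 1339 and 1880 UMIs per kept cell. KO IgG and WT IgG had medians of 1222 and 2026, so both knockout libraries were shallower than both wild-type libraries. The transcript Gm42418, at 1623 to 2079 CPM in the other libraries, was at 176 in KO anti-PD-1. Scgb1a1, a secretory protein of airway club cells, was at 236 against 15.5 to 67.4 and appeared in every class. The neutrophil alarmin S100a8 was raised in B cells, at 2925 CPM against 469 to 846 in the other libraries, but not in the same way elsewhere: T cells had 464 CPM against 314 to 526, and NK cells 930 against 394 to 1006. Of 4709 genes measured in at least 6 of 11 cell classes, 15 were at least 1.5-fold higher and 52 at least 1.5-fold lower in 80% or more of the classes, against 3 and 5 of 4191 in the IgG pair. The ratio also followed transcript length: over 4 equal groups of genes, from the shortest to the longest, the median log2 ratio went from 0.11 through -0.00 and -0.11 to -0.25, whereas that of the IgG pair ran from 0.05 to 0.04. Of the genes in the lists used below, Cxcl9, Gbp5, Atrx and Rel were among those lower across classes, and Ccl17, Chil3, Retnlg, Hspa1a, Krt8 and Scgb1a1 among those higher. Their values below carry this shift across classes. Under IgG, the median log2 ratios over classes went the same way for Cxcl9 (-1.99), Hspa1a (1.22), Chil3 (1.01), Retnlg (0.99), Ccl17 (0.75) and Krt8 (0.63). For these genes the shift was thus not confined to KO anti-PD-1. The IgG medians went the other way for Gbp5 (0.15) and Scgb1a1 (-2.99), and were small for Atrx (-0.00) and Rel (-0.15). Values after centring by length, or relative to the other cell classes, are given beside some of the lists and for others only in the last section.

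**Figure D1:**
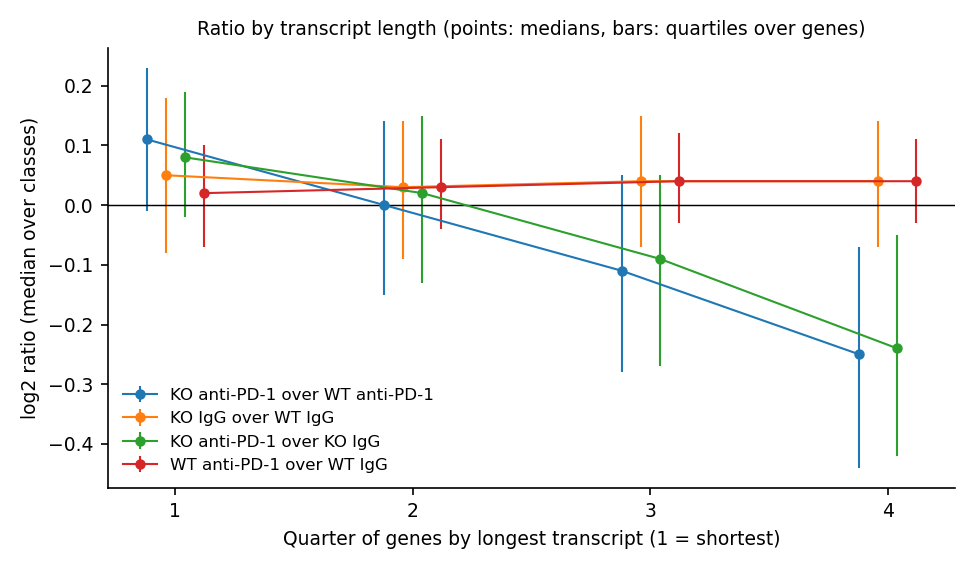
Median log2 ratio of 4 pairs of libraries in 4 equal groups of genes by longest transcript (points; bars span the quartiles over genes). Both pairs with KO anti-PD-1 slope down, from 0.11 to -0.25 and from 0.08 to -0.24, and the other 2 are nearly flat.

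Lymphocytes made up a smaller share, and myeloid cells a larger share, of the knockout suspension under anti-PD-1. Lymphocytes were 27.3% of kept cells in KO anti-PD-1 and 44.3% in WT anti-PD-1. The knockout share was 0.615 of the wild-type share, against 0.617 under IgG. Myeloid cells were 67.4% and 50.4%, a ratio of 1.34 (1.30 under IgG). T cells, named from Cd3d, Cd3e, Trac and other receptor genes, were 1039 of 5604 cells (18.5%, 17.5 to 19.6) against 1889 of 6180 (30.6%, 29.4 to 31.7). Their ratio was 0.607 (0.562 to 0.655), near the 0.569 of the IgG pair. Neutrophils were 2159 cells (38.5%, 37.2 to 39.8) against 1698 (27.5%, 26.4 to 28.6), a ratio of 1.40 (1.315 to 1.495) and 1.41 under IgG. This direction depended on the cut on detected genes. Among cells with at least 500 detected genes, the ratio for neutrophils was 0.613. The median depth of neutrophils was 771 UMIs in the knockout and 1130 in the wild type, so the cut met unequal depth. With UMIs of WT anti-PD-1 thinned at random to a fraction of 0.712, the neutrophil ratio stayed within the interval above.

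Tumour cells were 123 (2.19%) in KO anti-PD-1 and 102 (1.65%) in WT anti-PD-1, with a knockout-to-wild-type ratio of 1.33 (1.01 to 1.75). Under IgG the shares were 3.55% and 1.80%, a ratio of 1.97 (1.54 to 2.52). The keratins Krt8, Krt18 and Krt19 were each found in 80.4% to 92.7% of tumour cells in both libraries. They were among the markers that named this class, so they are no separate check of the label. Epcam, another of those markers, was at 0 UMIs in WT anti-PD-1 and at 2 in KO anti-PD-1.

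B cells showed the lowest ratio of any large class, 0.309 (0.256 to 0.370), with 152 cells (2.71%) in the knockout and 543 (8.79%) in the wild type. Their IgG ratio was 0.574. Monocytes and macrophages together were 19.4% and 16.0%, a ratio of 1.21 (1.11 to 1.32; 1.14 under IgG). Type 2 conventional dendritic cells, which present antigen to helper lymphocytes, were 5.35% and 3.71%, a ratio of 1.45 (1.21 to 1.72; 1.27 under IgG). Plasmacytoid dendritic cells, the main makers of type I interferon, were 66 and 38 cells, a ratio of 1.92 (1.27 to 2.94) against 0.805 under IgG. NK cells were 6.01% and 4.98%, a ratio of 1.21 (1.03 to 1.41; 0.959 under IgG). Migratory dendritic cells (1.12, 0.863 to 1.46), plasma cells (0.807, 0.586 to 1.11) and non-classical monocytes (1.11, 0.942 to 1.31) had intervals that include 1. Under IgG their ratios were 0.728 (0.55 to 0.962), 0.669 (0.515 to 0.867) and 1.075 (0.864 to 1.34), so the first 2 were lower in KO IgG beyond counting error.

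**Figure D2:**
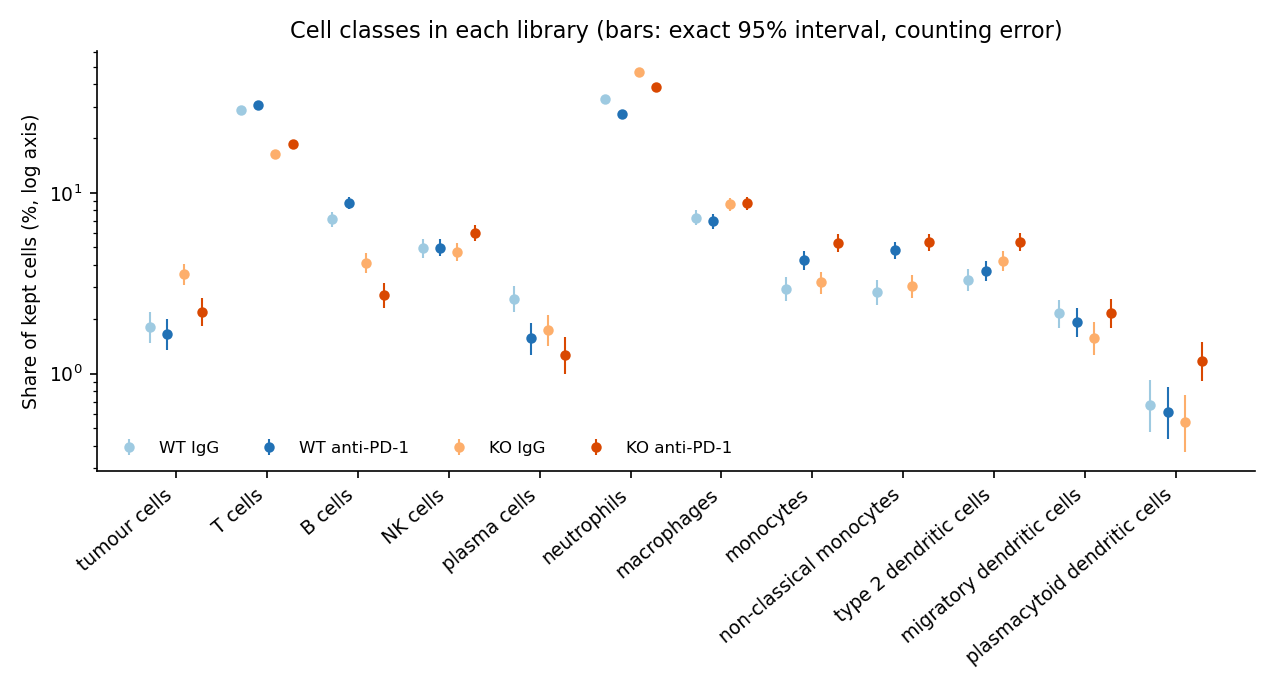
Share of each cell class among kept cells in the 4 libraries (log axis; bars are exact 95% intervals for counting error). T and B cells sit lower in both knockout libraries than in the wild-type library of the same treatment, and neutrophils and type 2 dendritic cells sit higher.

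Within T cells the naive group was nearly missing from KO anti-PD-1. This sub-cluster, called T2 and marked by Ccr7, Lef1 and other genes of recirculating T cells, had 23 cells (2.21% of T cells) against 246 (13.02%), a ratio of 0.170 (0.106 to 0.261). It made up 27.0% of T cells in KO IgG and 26.4% in WT IgG, so the low value belonged to 1 library of 4. A neighbouring sub-cluster, T0, was led by Ly6c2, Cd8b1 and Dapl1 among others. It was 16.5% and 11.1%, a ratio of 1.48 (1.395 under IgG). Both sub-clusters together were 18.7% and 24.1%, a ratio of 0.773 (0.651 to 0.917) against 1.17 under IgG. The part of the length shift above in the border between these neighbours was not tested.

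T4, led by Ccl1, Penk, Tnfsf8 and Cd4, made up 12.1% and 6.41% of T cells, a ratio of 1.89 (1.46 to 2.45). The IgG pair gave 0.595, in the opposite direction. Regulatory T cells (T7), which restrain other T cells and carry Foxp3, took 14.4% and 9.74% of T cells, a ratio of 1.48 (1.19 to 1.85; 1.06 under IgG). Over all cells they were 2.68% and 2.98%, a ratio of 0.899 (0.72 to 1.12), so their larger share of T cells went with fewer T cells. T6, led by Ccl5, Cxcr6, Gzmk, Cd8a and Pdcd1, held the largest share under anti-PD-1: 30.6% in the knockout and 38.5% in the wild type. Its ratio was 0.794 (0.694 to 0.907), and 0.634 under IgG, where it was 11.1% and 17.6%. T3, led by the interferon-induced Ifit1 and Isg15, was 1.54% and 3.07%, a ratio of 0.501 (0.363 under IgG). Cycling T cells (T8) stood at 5.78% and 4.98%, with a ratio of 1.16 (0.825 to 1.62), while under IgG the ratio was 0.388.

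**Figure D3:**
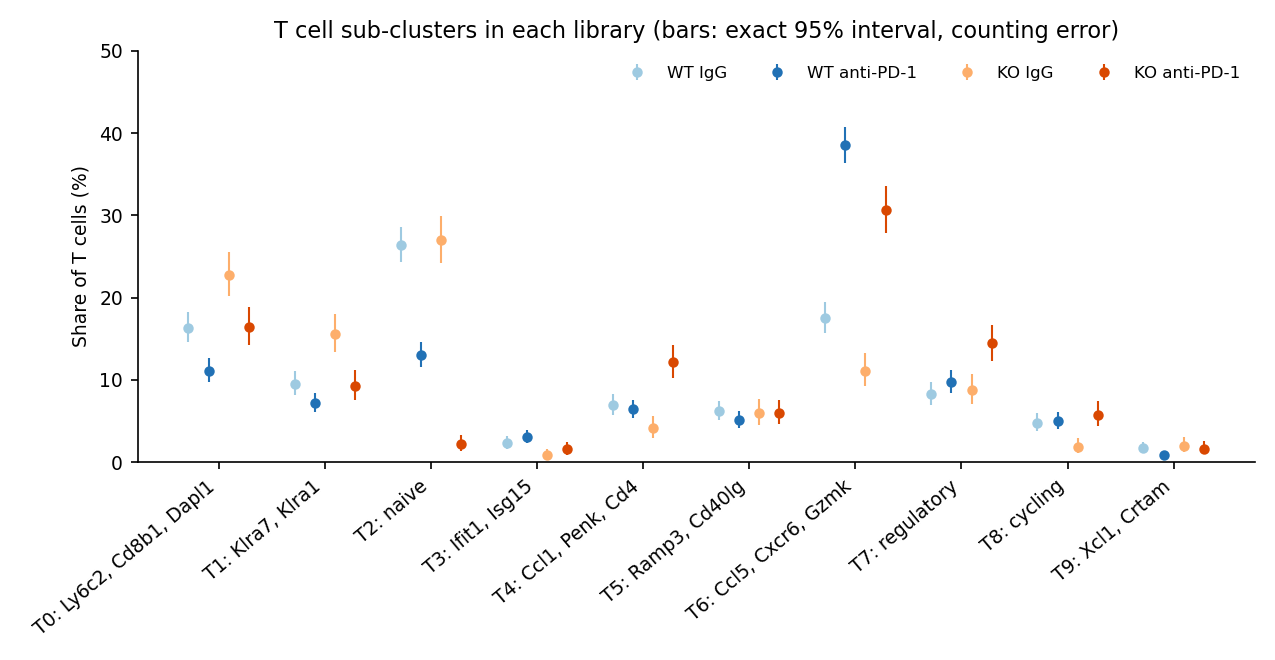
Share of each T cell sub-cluster among T cells in the 4 libraries (bars are exact 95% intervals for counting error), labelled by leading genes. The naive sub-cluster T2 is at 2.21% in KO anti-PD-1 and at 13.02% or more in the other 3 libraries, and T6 is higher with anti-PD-1 than with IgG in both genotypes.

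Among neutrophils, the cluster led by Retnlg, Stfa2l1 and Wfdc21 was 59.5% in KO anti-PD-1 and 43.0% in WT anti-PD-1, with a knockout-to-wild-type ratio of 1.38 (1.26 to 1.52; 1.34 under IgG). The cluster led by Siglecf and Adamdec1, genes of neutrophils resident in lung tumours, was 25.5% and 31.3% (ratio 0.815; 0.821 under IgG). A cluster led by Il23a and Cxcl3 was 13.7% and 22.6% (0.608; 0.774 under IgG). The small cluster with Ccl3 and the interferon-induced Rsad2 was 1.25% and 3.12%, a ratio of 0.401 (0.242 to 0.648; 0.891 under IgG). The 4 monocyte and macrophage clusters kept nearly the same mix, with ratios of 0.916 to 1.04.

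At the settings used here, tumour cells had a larger share of genes past 2-fold than the other classes described. This ranking depended on depth and the floor. With cells thinned to 1000 UMIs, 29 of 587 genes passed 2-fold in tumour cells and 31 of 600 in B cells. Without the floor it was 2232 of 11921 and 2296 of 9531. Tumour cells of the libraries also sat in different sub-clusters. E4, led by Krt18, Krt8, Rbp4 and Cald1, held 22.8% of tumour cells in KO anti-PD-1 and 9.8% in WT anti-PD-1, and 39.05% and 9.8% in KO IgG and WT IgG. E0, led by Lgals2, Krt19 and Rbp4, with Lypd8, Rbp2 and Ttr, held 8.13% and 17.6%, and 0.476% and 20.6% under IgG. E8, led by Krt8 and Clu, held 13.01% and 4.9%, and 2.38% and 4.9% under IgG. The part of this mix in the gene values below was not tested. Of the 6494 genes with at least 20 UMIs expected in each library, 197 (3.03%) were at least 2-fold higher in the knockout and 334 (5.14%) at least 2-fold lower. The split between higher and lower depended on scaling: 37.1% of the 2-fold genes were higher with totals, 47.5% with TMM factors, 55.5% with median-of-ratios factors and 54.6% after centring within bins of transcript length. Of 150 genes higher here and measurable under IgG, 43 were also at least 2-fold higher there, which is 28.7% of these genes and 21% of the 205 higher under IgG (3.26% of 6291 genes). Of 321 genes lower, 70 were also 2-fold lower under IgG, which is 21.8% of these and 24.5% of the 286 lower under IgG (4.55% of 6291). In the opposite direction under IgG were 15 of the 150 and 5 of the 321.

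The genes highest in knockout tumour cells by the nearer bound of their interval included several that were also high in KO IgG. S100a4, a cytoskeletal regulator of migrating cells, was at 547 CPM in WT anti-PD-1 and 370 in WT IgG, and at 2395 in KO anti-PD-1 and 2711 in KO IgG. Its log2 ratio was 2.13 (2.03 to 2.24) under anti-PD-1 and 2.87 under IgG, and it was found in 84.5% and 65.7% of knockout and wild-type cells. Cd63, a tetraspanin of endosomes, was at 152 and 148 in the wild-type libraries and 585 and 601 in the knockout libraries, a log2 ratio of 1.94 (1.74 to 2.15; 2.02 under IgG). Lgals1, a secreted galectin, was at 4140 and 8607 in WT and KO anti-PD-1 (log2 ratio 1.06, 1.01 to 1.10; 1.14 under IgG). For these 3 genes both knockout libraries lay above both wild-type libraries.

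Crip2, a LIM-domain protein, was at 31.9 and 110 CPM (log2 ratio 1.78, 1.34 to 2.25; 1.66 under IgG). Agt, the angiotensin precursor, had 4 and 46 UMIs (3.39, 1.93 to 5.32; 1.59 under IgG). Htra1, a secreted protease, was at 4.29 and 25.7 CPM (2.58, 1.42 to 3.97; 1.69 under IgG). Dynap followed the same pattern at 3.07 and 30.1 CPM (3.30, 1.98 to 4.97; 2.28 under IgG).

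Ly6a, Rbp2 and Gstt1 were also near the top, but were not raised to the same degree in KO IgG. Ly6a (Sca-1), a surface protein raised by interferon, was at 592 CPM in KO anti-PD-1 and at 110 to 201 in the other 3 libraries, a log2 ratio of 1.56 (1.38 to 1.74; 0.36 under IgG). Rbp2, an intestinal retinol carrier, was at 684 against 183 (1.90, 1.72 to 2.09), while under IgG its log2 ratio was -1.34. Gstt1, a glutathione transferase, was at 30.7 against 6.14 (2.32, 1.34 to 3.46), and at -2.86 under IgG. These 3 genes did not separate the genotypes over all 4 libraries. Hist1h2ap, a replication-dependent histone H2A gene, was at 469 against 43.6 (a log2 ratio of 3.43; 1.35 under IgG) and was found in 49.6% and 24.5% of cells. Ube2c, a cell-cycle ubiquitin enzyme, was at 218 against 55.8, but its richest cell held 32.5% of its UMIs in the knockout and 38.5% in the wild type.

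The genes lowest in knockout tumour cells included several of foregut and liver-type epithelium. Ttr, the transthyretin carrier, was at 410 CPM in WT anti-PD-1 and 58.0 in KO anti-PD-1, with 617 and 25.5 under IgG. Its log2 ratio was -2.82 (-3.13 to -2.52) and -4.60 under IgG, and in the knockout 1 cell held 52.9% of its UMIs. Afp, alpha-fetoprotein, was at 115 and 17.9 (-2.68, -3.27 to -2.14; -1.83 under IgG). Foxa2, a transcription factor of endoderm, was at 64.4 and 21.8 (-1.57, -2.14 to -1.02; -1.41 under IgG). For each of these 3 genes both knockout libraries were below both wild-type libraries.

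Gimd1 had 60 UMIs in WT anti-PD-1 and 3 in KO anti-PD-1 (36.8 and 1.67 CPM, log2 ratio -4.46, -6.78 to -2.84; -4.18 under IgG). Vil1, the villin of microvilli, was at 62.6 and 16.7 (-1.90, -2.54 to -1.30; -3.09 under IgG), and Anxa10, an annexin of stomach epithelium, at 70.6 and 28.4 (-1.31; -2.41 under IgG). Igfbp5, a binder of insulin-like growth factors, was at 109 and 24.5 (-2.15, -2.66 to -1.66; -2.09 under IgG). Gpm6b, a membrane glycoprotein, was at 30.1 and 4.46 (-2.75; -2.41 under IgG). Cxcl3, a chemokine for neutrophils, was at 107 and 20.1 (-2.42, -2.98 to -1.89), with a smaller log2 ratio of -0.67 under IgG. AW112010, an interferon-induced transcript of immune and epithelial cells, was at 740 and 261 (a ratio of 0.353, and a log2 ratio of -3.09 under IgG).

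**Figure D4:**
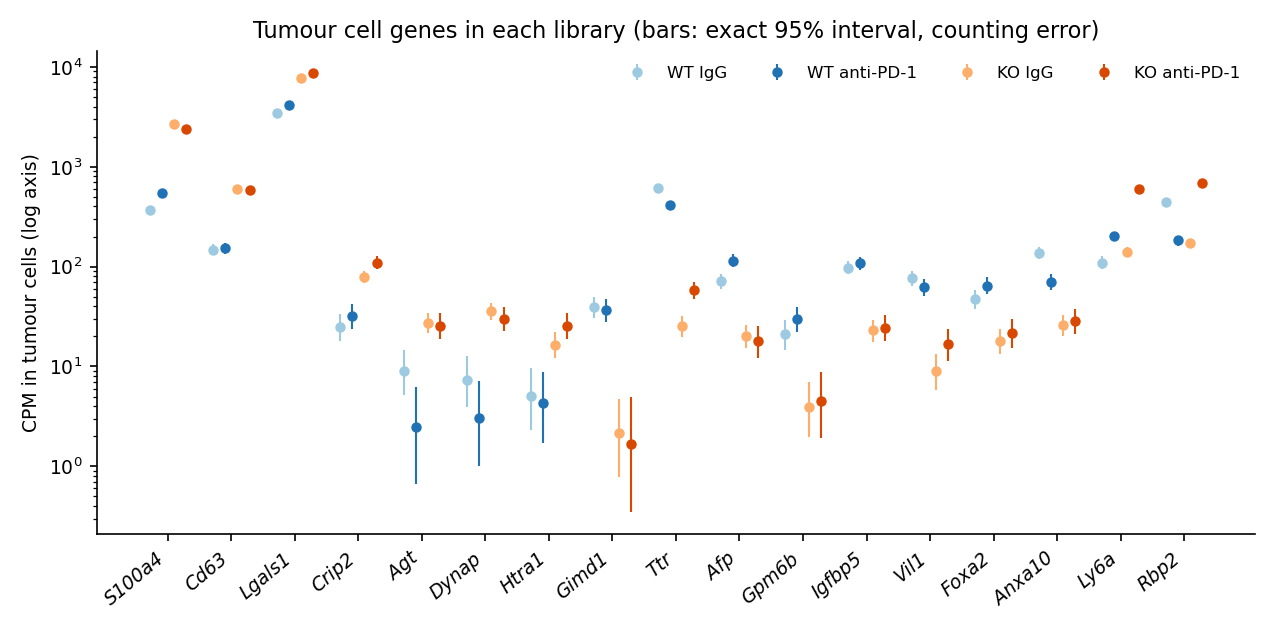
CPM of 17 genes in tumour cells of each library (log axis; bars are exact 95% intervals for counting error). From S100a4 to Htra1 both knockout libraries lie above both wild-type libraries, from Gimd1 to Anxa10 both lie below, and Ly6a and Rbp2 are highest in KO anti-PD-1.

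By list, at least 1.5-fold and among genes past the count floor, 8.82% of all tumour genes were higher and 17.9% lower, with a median log2 ratio of -0.10. In the list of interferon-gamma response genes, 4 of 13 measured members (25 in the list) were lower, namely Cxcl9, Cxcl10, Ido1 and Wars, none was higher, and the median was -0.31 against -1.12 under IgG. Of these, Cxcl9 and Ido1 rested on 1 wild-type cell that held 65% and 56.1% of their UMIs. Cxcl10 was at 34.0 CPM in KO anti-PD-1 and 65.7 in WT anti-PD-1 (log2 ratio -0.95, -1.43 to -0.48), above the 8.49 and 5.02 of WT IgG and KO IgG. Type I interferon genes went the other way, with 6 of 11 measured members higher (among them Isg15, Ifit1 and Ifit3), none lower and a median of 0.59, against -0.68 under IgG. They too sat in few cells: the richest cell held 60.1% of Ifit1 in the knockout and 57.1% in the wild type.

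In the MHC class I presentation list 1 of 9 measured members was lower (Erap1, a peptide trimmer), none was higher, and the median was -0.16, against -0.88 under IgG. H2-K1, which presents peptides to CD8 T cells, was at 240 CPM in KO anti-PD-1 and 315 in WT anti-PD-1, above the 53.4 of KO IgG and 196 of WT IgG. Its log2 ratio was -0.39 (-0.58 to -0.20) under anti-PD-1 and -1.88 under IgG. H2-D1 was at 1148 and 855 (0.43, 0.33 to 0.52; -1.08 under IgG). In both genotypes these genes were higher in the anti-PD-1 library.

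Proliferation genes had all 30 members measured, 15 higher, 2 lower (Mki67 and Bub1) and a median of 0.46 (0.53 under IgG). With every cell weighted equally the median was -0.19, and Ube2c was found in 20.3% of knockout and 26.5% of wild-type cells. Hypoxia and glycolysis genes had 4 of 22 higher (Slc2a1, Eno1, Bnip3 and Ndrg1), none lower and a median of 0.34, against -0.51 under IgG. Among histone chaperones, the family of ASF1A, 5 of 16 were lower (Asf1a, Ubn1, Atrx, Rbbp7 and Supt16) and only Asf1b was higher. The median was -0.30 against 0.27 under IgG. Asf1a is the gene knocked out, so its place in this count was set by the design. Atrx was lower across cell classes. Without such genes, 4 of 15 were lower, Asf1a still among them, beside 17.9% of all tumour genes. Oxidative phosphorylation genes had 24 measured members, none past 1.5-fold either way, and a median of 0.20 (0.26 under IgG). The gastrointestinal list was mixed, with 5 of 11 higher and 4 lower. Its highest member, Lypd8, was found in 5.69% of knockout cells and had 47.6% of its UMIs in 1 cell.

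Csf2, the growth factor GM-CSF, had 18 UMIs in KO anti-PD-1 and 25 in WT anti-PD-1 tumour cells, a log2 ratio of -0.61, against 2.06 under IgG.

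In monocytes and macrophages, interferon-gamma response genes were lower in the knockout. Of 8834 genes past the floor, 76 (0.86%) were at least 2-fold higher and 130 (1.47%) at least 2-fold lower. At 1.5-fold, 3.38% of genes were higher and 8.77% lower, and the median log2 ratio was -0.06. In the interferon-gamma list 10 of 22 measured members were lower, none was higher, and the median was -0.50 (-0.63 under IgG). After centring within bins of transcript length it was -0.34, and relative to the other cell classes it was -0.13. Cxcl9, a chemokine for T cells, was at 225 CPM in WT anti-PD-1 and 77.9 in KO anti-PD-1 (-1.53, -1.69 to -1.37; -0.60 under IgG), and Iigp1, an immunity-related GTPase, at 19.0 and 5.14 (-1.88, -2.55 to -1.27; -1.51 under IgG). Within each treatment, both were lower in the knockout library. Cd274 (PD-L1) was at 59.4 and 39.3 (-0.59, -0.85 to -0.34) but did not differ in the same way under IgG, at 50.5 and 53.6 (0.09).

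The same list was lower in macrophages (10 of 21 lower, median -0.42, background 9.19% of genes) and in non-classical monocytes, the Ly6c-low patrolling cells (10 of 17, -0.63, background 13.5%). Relative to the other classes, 3 of 18 members were lower and 1 higher in macrophages (median -0.12), and 3 of 17 lower and 1 higher in non-classical monocytes (-0.31). Classical monocytes did not show it: 1 of 12 was lower and 1 higher, with a median of -0.10 (background 10.6%), against -0.64 under IgG. In the 2 macrophage clusters the medians were -0.39 (6 of 17 lower, background 11.2%) and -0.66 (11 of 18, background 10.9%).

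In neutrophils the list was lower as well, with smaller differences inside the clusters given below. Of 5973 genes past the floor, 82 (1.37%) were 2-fold higher and 119 (1.99%) 2-fold lower. At 1.5-fold, 6.66% of genes were higher and 10.6% lower, with a median of -0.06. Of 16 measured interferon-gamma members 11 were lower, none was higher, and the median was -0.83 (-0.72 under IgG; -0.77 after length centring and -0.42 relative to other classes). Cxcl10 was at 254 CPM in WT anti-PD-1 and 91.7 in KO anti-PD-1 (-1.47, -1.72 to -1.22; -2.23 under IgG). Gbp5, a guanylate-binding protein that acts on intracellular bacteria, was at 34.0 and 11.6 (-1.55, -2.31 to -0.84; -1.41 under IgG). Inside the Retnlg cluster, 0 of 10 members were 1.5-fold lower (background 7.72%) and the median was -0.06. In the Siglecf cluster it was 4 of 10 with -0.44 (background 9%), and in the Il23a cluster 5 of 11 with -0.45 (background 9.17%). Each of these clusters had fewer measured members than the 16 of the class. The part of the cluster mix in the class median was not tested.

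**Figure D5:**
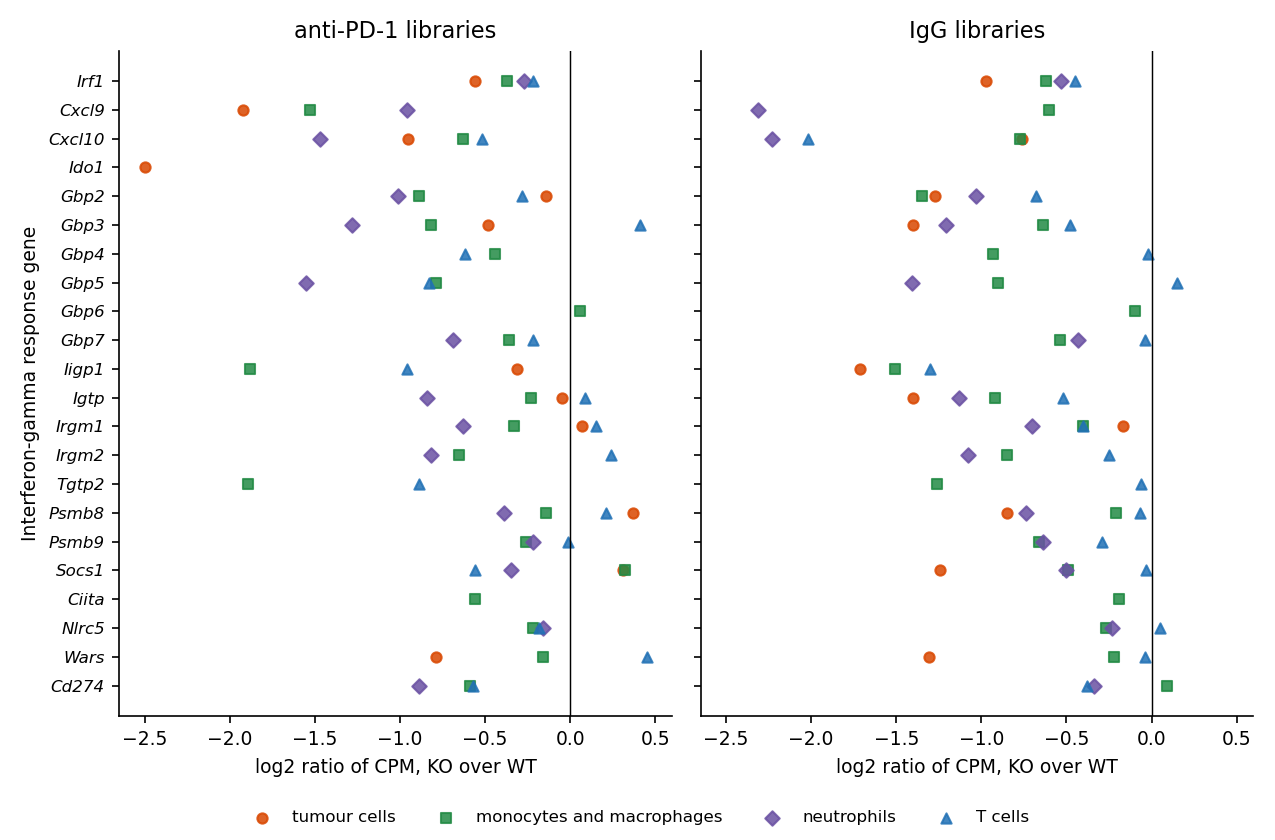
Log2 ratio of knockout to wild type for interferon-gamma response genes in 4 cell classes, under anti-PD-1 and under IgG, where they passed the count floor in the anti-PD-1 pair. Most points of monocytes and macrophages and of neutrophils lie left of 0 in both panels, with list medians of -0.50 and -0.83 under anti-PD-1.

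Promoter windows of 4 genes lower in both treatments held motifs through which interferons act, apart from a second window of Gbp3. Cxcl10, Gbp2, Gbp3 and Gbp5 were among the members past the count floor and at least 1.5-fold lower in both monocytes and macrophages and neutrophils, under both anti-PD-1 and IgG, a rule set after their values were seen. Relative to the other cell classes, Cxcl10 (0.58) and Gbp5 (0.38) turned higher in monocytes and macrophages. Their windows of 250 bases before to 50 bases after the start (RefSeq, GRCm38.p6) were searched on both strands for the interferon-gamma-type GAS motif TTCNNNGAA and the ISRE motif, which is GAAA, any 2 bases and GAAA. The 4 stretches below run 5′ to 3′ in the direction of the gene, end before the start site, and have the motif in capitals.
Cxcl10: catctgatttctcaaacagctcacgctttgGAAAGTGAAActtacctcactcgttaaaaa
Gbp2: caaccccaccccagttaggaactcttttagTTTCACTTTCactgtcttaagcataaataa
Gbp3: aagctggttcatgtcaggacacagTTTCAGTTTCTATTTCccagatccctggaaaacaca
Gbp5: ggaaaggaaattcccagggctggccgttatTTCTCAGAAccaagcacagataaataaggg
The Cxcl10 stretch is chr5:92349073-92349132 on the minus strand, the Gbp2 stretch chr3:142620574-142620633, the Gbp3 stretch chr3:142559975-142560034 and the Gbp5 stretch chr3:142496852-142496911, the last 3 on the plus strand. Capitals mark an ISRE in Cxcl10 and Gbp2, 2 overlapping ISREs in Gbp3 and a GAS in Gbp5. The second Gbp3 window held neither motif and is not shown. The Gbp5 window held 2 GAS and 1 ISRE, of which only the GAS nearest the start lies in the stretch. Of all 32841 promoter windows of this length, 8.3% held a GAS and 3.44% an ISRE. Of the 18 windows of interferon-gamma list members, 44.4% and 61.1% did. A match describes the letters and is no measure of binding.

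Type I interferon genes in monocytes and macrophages had 3 of 20 members lower (Oasl2, Oas3 and Ddx58), 1 higher (Rsad2) and a median of -0.29 (-0.82 under IgG). In neutrophils 6 of 18 were lower, among them Ifit1, Ifit3 and Usp18, with none higher and a median of -0.46 (-0.52 under IgG). Relative to the other classes these medians were 0.03 and -0.08. Rsad2 (viperin), an antiviral enzyme, was at 134 CPM in WT anti-PD-1 neutrophils and 73.2 in KO anti-PD-1 (-0.87; -1.37 under IgG). Plasmacytoid dendritic cells, the class known for making these interferons, were more numerous in KO anti-PD-1, as given above.

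Chaperones of the endoplasmic reticulum were lower in knockout monocytes and macrophages under anti-PD-1. In the unfolded protein response list 6 of 17 members were lower (Hspa5, Hsp90b1, Calr, Pdia3, Pdia6 and Creld2) and 1 was higher (Asns), with a median of -0.38 against -0.03 under IgG. Hspa5 (BiP), the main chaperone there, was at 931 and 479 CPM in WT and KO anti-PD-1, and at 915 and 750 under IgG (log2 ratio -0.96, -1.03 to -0.89; -0.29 under IgG). It was found in 85.7% and 72.7% of cells.

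Among inflammatory (M1-type) macrophage genes 5 of 13 were lower, none was higher, and the median was -0.27 (-0.35 under IgG; 0.09 over 7 members relative to the other classes). Nos2, the inducible nitric oxide synthase, had 43 UMIs in WT anti-PD-1, 58.1% of them in 1 cell, and 8 in KO anti-PD-1. Alternatively activated (M2-type) genes were split, with 4 of 13 higher (Chil3, Retnla, Ccl17 and Ccl24), 4 lower (Mrc1, Pdcd1lg2, Mgl2 and Cd209a) and a median of -0.29 (-0.08 under IgG; 0.11 over 5 members relative to the other classes). Chil3, a chitinase-like protein of monocytes and neutrophils, was at 695 and 2293 (1.72, 1.67 to 1.77; 1.30 under IgG), but its log2 ratio relative to other classes was 0.09. Ccl24, a chemokine for eosinophils, was at 115 and 227 (0.98, 0.84 to 1.11), with 302 and 309 under IgG. Arg1, the arginase that depletes arginine from T cells, was at 581 and 476 (-0.29, -0.36 to -0.21; -0.67 under IgG). Spp1, osteopontin, was at 1159 and 847 (-0.45, -0.51 to -0.40), against 0.74 under IgG.

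Several genes far from 0 in monocytes and macrophages were not in these lists. Lower were Serpinb2, an inhibitor of urokinase (21.6 and 2.96 CPM, log2 ratio -2.86, -3.74 to -2.09; -0.55 under IgG), and Tlr8, a receptor for single-stranded RNA (13.8 and 2.17, -2.66, -3.72 to -1.76; -0.47 under IgG). Tnip3, which restrains NF-kB, was at 45.6 and 14.4 (-1.66; -0.04 under IgG). Higher were Htra3, a secreted protease (26.0 and 62.9, 1.27, 1.00 to 1.55; 1.07 under IgG), and Fstl1, a secreted follistatin-like protein (7.65 and 24.3, 1.67; 1.25 under IgG). Apoc1, an apolipoprotein, was at 19.0 and 42.3 (1.16, 0.83 to 1.49; -0.05 under IgG). Htra3 and Fstl1 were thus higher in both knockout libraries, and Apoc1 in KO anti-PD-1 alone.

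In neutrophils, granule and secreted-protein genes were higher in the knockout. Of 14 measured members 9 were higher (Camp, Ngp, Lcn2, Mmp8, Chil3, Cd177, Wfdc21, Wfdc17 and Retnlg) and none was lower, with a median of 0.85 (0.21 under IgG). The same list had medians of 2.28 in B cells and 1.55 in NK cells, which do not make these proteins, and relative to other classes its median in neutrophils was -0.59. Wfdc17, a secreted protein with a WAP domain, was at 1605 and 9157 CPM, and at 2056 and 10774 under IgG (log2 ratio 2.51, 2.46 to 2.57; 2.39 under IgG). It was found in 65.3% of knockout and 37.6% of wild-type neutrophils. Ifitm1, an interferon-induced membrane protein, was at 1027 and 2620 (1.35, 1.28 to 1.43; 1.37 under IgG), and Lrg1, a granule glycoprotein, at 284 and 742 (1.39, 1.25 to 1.53; 0.96 under IgG). Snai1, a transcription factor, was at 41.6 and 113 (1.45; 0.93 under IgG). For these 4 genes both knockout libraries were above both wild-type libraries.

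Genes of mature, lung-type neutrophils were lower in part: 4 of 15 were lower (Siglecf, Ccl3, Csf1 and Clec5a), 1 was higher (Hilpda), and the median was -0.34 (-0.16 under IgG). Siglecf was at 129 and 74.8 (-0.79, -1.09 to -0.49), and at 160 and 144 under IgG. Csf1, a macrophage growth factor, was at 252 and 139 (-0.86, -1.08 to -0.64; -0.25 under IgG). Among inflammatory genes Il1a, an alarmin cytokine, was at 298 and 150 (-0.99, -1.20 to -0.78; -0.76 under IgG), and Il23a at 162 and 84.8 (-0.93; -0.17 under IgG). Cd274 was at 162 and 87.5 (-0.89, -1.17 to -0.62; -0.34 under IgG).

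In T cells as a whole 52 of 7113 genes (0.731%) were at least 2-fold higher and 70 (0.984%) at least 2-fold lower, and the median log2 ratio was 0.01. With TMM factors 32.6% of the 2-fold genes were higher, against 42.6% with totals. At 1.5-fold, 5% of genes were higher and 6.38% lower. Naive and memory genes had 4 of 12 lower (S1pr1, Satb1, Igfbp4 and Foxp1), none higher and a median of -0.50, against 0.20 under IgG, beside the low count of T2 cells. S1pr1, which lets T cells leave tissue, was at 139 CPM in WT anti-PD-1 and 71.4 in KO anti-PD-1, with 190 and 170 under IgG (-0.97, -1.24 to -0.70; -0.16 under IgG). Regulatory T cell genes had 5 of 12 higher (Il2ra, Tnfrsf4, Tnfrsf9, Tnfrsf18 and Il10), none lower and a median of 0.42 (0.10 under IgG). Tnfrsf4 (OX40), a costimulatory receptor, was at 164 and 327 (1.00, 0.85 to 1.15; 0.10 under IgG). Relative to the other classes the median was 0.04 over 6 members. Inside regulatory T cells this list had a median of 0.14, and -0.47 over 6 members relative to the other classes.

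Ccl1, a chemokine for CCR8, was at 48.1 and 266 CPM (2.47, 2.24 to 2.70; 0.49 under IgG) and was found in 1.48% and 4.62% of T cells, beside the larger T4 share, of which it is a leading gene. Areg, an epidermal growth factor ligand made by tissue T cells, was at 45.6 and 115 (1.33, 1.05 to 1.61), and at 48.0 and 26.5 under IgG (-0.86). Klra7, a Ly49 receptor, was at 49.4 and 123 (1.32; 1.00 under IgG). Hist1h1b, a linker histone gene, was at 119 and 19.0 (-2.65, -3.17 to -2.18; -0.89 under IgG). Trgv2, a gamma-delta receptor segment, was at 55.7 and 11.98 (-2.22, -2.89 to -1.61; -0.01 under IgG).

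Several effector molecules over all T cells differed little between the anti-PD-1 libraries. In the cytotoxic list 4 of 18 members were higher, none was lower, and the median was 0.07 (-0.26 under IgG). Gzmb, a granzyme, was at 202 CPM in WT anti-PD-1 and 213 in KO anti-PD-1 (0.08, -0.09 to 0.25), against 82.0 and 41.4 under IgG. Ifng was at 79.2 and 82.3 (0.06, -0.22 to 0.33), while under IgG it was at 59.4 and 13.8, a log2 ratio of -2.10. Pdcd1 was at 127 and 131 (0.05, -0.17 to 0.26; -0.33 under IgG). Gzma was higher, at 472 against 237 (0.99, 0.86 to 1.12), and lower under IgG (-1.29). Inhibitory receptor genes had 0 of 10 members past 1.5-fold either way and a median of 0.03 (-0.11 under IgG). Interferon-gamma response genes in T cells had 4 of 19 lower (Gbp4, Gbp5, Iigp1 and Tgtp2), none higher and a median of -0.22 (-0.29 under IgG; 0.21 relative to the other classes).

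Inside T6, the Pdcd1- and Gzmk-expressing sub-cluster, Ifng was lower in the knockout: 61.0 CPM (32 UMIs) against 132 (190 UMIs), a log2 ratio of -1.12 (-1.71 to -0.57). Under IgG it was at 61.7 in KO IgG (108 T6 cells) and 148 in WT IgG (286 T6 cells), a log2 ratio of -1.27. Both knockout libraries were thus below both wild-type libraries, with few T6 cells in KO IgG. Ifng was found in 8.49% and 18.5% of T6 cells. Gzmb there was at 360 and 304 (0.25, -0.01 to 0.50; -1.77 under IgG), and Pdcd1 at 252 and 229 (0.13, -0.17 to 0.43; 0.03 under IgG). In T6, 4.43% of the 3228 genes past the floor were 1.5-fold higher and 8.98% lower, and the cytotoxic list had 1 of 15 higher, 3 lower and a median of -0.16 (0.22 under IgG).

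Type 2 dendritic cells had 72 of 6144 genes (1.17%) 2-fold higher and 147 (2.39%) 2-fold lower. At 1.5-fold, 5.05% of genes were higher and 12.4% lower. The class also held cells with Xcr1, a receptor that marks type 1 dendritic cells, found in 8.67% of its knockout and 14.4% of its wild-type cells (50.2 and 90.7 CPM; 60.1 and 61.95 under IgG). The part of this mix in the values below was not tested. Interferon-gamma genes had 5 of 18 lower, none higher and a median of -0.39 (-0.33 under IgG), and type I interferon genes 5 of 13 lower, none higher and a median of -0.50 (-0.44 under IgG). Relative to the other classes both were near 0: 3 of 18 were lower and 2 higher with a median of -0.07, and 2 of 12 lower with -0.09. Cxcl10 was at 58.4 CPM in the wild type and 11.8 in the knockout (-2.30, -3.05 to -1.62), but at 18.3 and 25.9 under IgG (0.50). Samd9l, an interferon-induced antiviral gene, was at 60.5 and 10.7 (-2.50, -3.28 to -1.79, and -0.23 under IgG). It was at least 1.5-fold lower in all 9 classes where it was measured (median -1.22), so its direction was not particular to type 2 dendritic cells. The unfolded protein response list had 7 of 15 lower, 1 higher and a median of -0.39 (-0.03 under IgG), as in monocytes and macrophages. Proliferation genes had 7 of 19 higher, 1 lower and a median of 0.50, against -0.60 under IgG. Birc5, a survivin of dividing cells, was at 29.7 and 84.0 (a ratio of 2.83), with 54.9 and 28.3 under IgG. None of the 10 MHC class II genes passed 1.5-fold either way, and their median was -0.00 (0.01 under IgG).

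NK cells had 26 of 3556 genes (0.731%) 2-fold higher and 84 (2.36%) 2-fold lower. Itgb1, an integrin subunit, was at 617 and 255 CPM (-1.28, -1.55 to -1.01, and 0.13 under IgG). It was at least 1.5-fold lower in all 10 classes where it was measured (median -0.92), so this was not particular to NK cells. Gzmb was at 836 and 770 (-0.12, -0.30 to 0.06; -0.30 under IgG), Ifng at 94 and 95 (0.02, -0.52 to 0.54; -0.38 under IgG), and Prf1, perforin, at 505 and 392 (-0.37, -0.61 to -0.13; -1.04 under IgG). Ccl4, a chemokine, was at 1448 and 2230 (0.62, 0.51 to 0.74), against -0.64 under IgG. In B cells 31 of 1610 genes (1.93%) were 2-fold higher and 40 (2.48%) 2-fold lower. T cell genes were higher in this class: Cd3d was at 52.1 CPM in the wild type and 209 in the knockout (log2 ratio 2.01; 0.88 under IgG), in 6.81% and 19.7% of cells, and Ccl5 at 379 and 1664 (2.13; 0.61 under IgG). The part of these and of S100a8 in the other B cell values was not tested. Pim1, a kinase of activated lymphocytes, was at 169 and 366 (1.12, 0.74 to 1.49; 1.00 under IgG), and Dusp1, an immediate-early phosphatase, at 177 and 438 (1.31, 0.96 to 1.65; 0.86 under IgG).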

How the data were processed

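The 4 matrices hold UMI counts per gene and cell as the authors deposited them. Per the file headers, the software was Cell Ranger 3.0.0. Beside it, bcl2fastq and the build hg19 stand in the submitters' processing notes, whereas the 31053 gene IDs are mouse Ensembl IDs, so the build behind the counts is not established and no coordinates were taken from the files. Cells needed 200 genes and at most 10% mitochondrial UMIs. Cells with a Scrublet score above 0.25 (73 in KO anti-PD-1, 105 in WT anti-PD-1) were left out, which kept 5604 and 6180. All 4 libraries were clustered together without batch correction (scanpy, Leiden, resolution 1), and clusters were named from marker genes. Counts were summed per class and library and scaled to CPM. A gene was compared where at least 20 UMIs were expected in each library under equal levels, called at 2-fold, and counted in a list at 1.5-fold. A count of 0 was set to 3 for a bound. Intervals are exact (Clopper-Pearson for shares, conditional for ratios). Genes were named by rank on the nearer bound of the interval (12 each way in the 4 main classes, 5 in others, with at most 25% of UMIs in 1 cell), by membership in lists (up to 4 per list and class) or from 12 fixed genes. The members and lists were chosen with earlier results of these data known. TMM and median-of-ratios factors came from edgeR 4.0.16 and DESeq2 1.42.0, used for scaling only. The comparison code was checked on simulated counts. Barcodes shared between libraries were not analysed here. A few items are not reported here, although list counts and medians cover every measured member.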

Additional observations from a re-analysis of the deposited data

Results flagged for a closer look

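A few of the genes described above were at least 2-fold one way between the anti-PD-1 libraries and at least 2-fold the other way between the IgG libraries. In tumour cells, Rbp2 had a log2 ratio of knockout to wild type of 1.90 under anti-PD-1 and -1.34 under IgG, and Gstt1 had 2.32 and -2.86. In monocytes and macrophages Nos2 had -2.06 and 2.20. The differences between the 2 pairs were not tested, because each group has 1 library.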

How the results depend on the processing

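No paired analysis was possible because each group has 1 library, and for the same reason no library could be left out. Among cells with at least 500 detected genes the share ratios were 1.90 for tumour cells, 0.766 for T cells, 1.62 for monocytes and macrophages and 0.613 for neutrophils, whose direction turned. Over cells other than neutrophils, an alternative chosen after seeing the data, T cells gave 0.716 and monocytes and macrophages 1.43. Without a floor on counts the 2-fold genes numbered 2232 in tumour cells, 1403 in monocytes and macrophages, 1821 in T cells and 1766 in neutrophils, against 531, 206, 122 and 201. With cells weighted equally they numbered 972 in tumour cells and 192 in T cells. With cells thinned to 1000 UMIs, which leaves fewer genes, they numbered 29 of 587 in tumour cells and 108 of 2607 in neutrophils. After subtracting the median of the other classes, also chosen after seeing the data, there were 193, 31, 39 and 89 in tumour cells, monocytes and macrophages, T cells and neutrophils; by construction this removes what classes share. That setting turned Cxcl10 in tumour cells (0.08) and in monocytes and macrophages (0.58), Gbp5 in monocytes and macrophages (0.38), Tnfrsf4 in T cells (-0.03) and the granule list in neutrophils (-0.59), and it turned the medians of the interferon-gamma list in tumour cells (0.21) and T cells (0.21), of the type I interferon (0.03), M1-type (0.09) and M2-type (0.11) lists in monocytes and macrophages, of the interferon-gamma list in classical monocytes (0.12), of MHC class I presentation in tumour cells (0.03), of the cytotoxic list in T cells (-0.33) and of the regulatory list in regulatory T cells (-0.47). No direction past 1.5-fold turned under TMM or median-of-ratios factors, length bins, a 5% mitochondrial limit, doublets kept or removal of the richest cell, among the genes and lists given in the text. Smaller list medians did turn in other settings. With cells thinned to 1000 UMIs, M2-type genes in monocytes and macrophages had 0.21 over 11 members, and MHC class I presentation in tumour cells 0.34 over 3. With cells weighted equally, proliferation in tumour cells had -0.19. Of the gene log2 ratios, 25 of 55 left their interval with thinned cells and 28 of 87 with equal weights. Depth limits the classes with few genes past the floor most, such as B cells with 1610 and plasma cells with 1642, against 6494 in tumour cells.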
